A study of Mus musculus with 10 samples.

Results

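Interferon-stimulated genes are the genes that a cell switches on when it senses interferon, the secreted alarm signal of antiviral defence. The set described here held 36 mouse genes, chosen by symbol with earlier results of these data known. Of these, 25 respond mainly to type I interferons and 11 mainly to interferon gamma. The set includes several of the transcription factors that carry the signal. A member was counted as measured where a probe set of the array carried its symbol and no other, which held for 32 of the 36 members (22 type I and 10 gamma-inducible) among 22180 genes in all. *Oas1a*, *Gbp2* and *Ifi27l2a* lay only on probe sets shared with the symbols *Oas1g*, *Gbp2b* and *Ifi27l2b*, and *Ifi44* was not listed in the platform annotation, so no values are given for these 4 genes.

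Affymetrix Mouse Gene 2.0 arrays, 1 per mouse, were run on liver RNA from 6 *Vps33b* fl/fl-AlfpCre mice (knockout males 1 to 3 and females 4 to 6) and 4 *Vps33b* fl/fl mice (control males 1 and 2 and females 3 and 4). VPS33B is a vesicle trafficking protein whose loss in humans causes ARC syndrome, a disorder with arthrogryposis, renal dysfunction and cholestasis. In both groups exons 2 and 3 of *Vps33b* were flanked by loxP sites on a C57BL/6J background, and AlfpCre deletes them in hepatocytes and cholangiocytes, so that macrophages, endothelium and other liver cells of the knockout mice keep the gene. The controls were Cre-negative littermates. All 10 mice received chow with 0.5% cholic acid, a bile acid, which according to the labels began at 10 weeks of age and lasted 2 weeks, while the study's methods describe an earlier start and a longer feeding period. The probe set of *Vps33b* read 9.22 ± 0.17 in knockout and 9.13 ± 0.01 in control livers (SD, n = 6 and 4), and since it is not known whether its probes lie in the deleted exons this does not check the deletion.

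Values are log2 expression values after robust multi-array averaging (RMA), so that a difference of 1 is a 2-fold change, and differences are knockout minus control from a limma fit with genotype and sex, with p-values adjusted over all 22180 genes and a threshold of 0.05. Levels of different probe sets are not compared with each other. Array medians lay between 4.71 and 4.82 and correlations between arrays between 0.982 and 0.991. Transcripts of 3 Y-linked genes, absent from females, gave readings of 3.38 to 4.51 in the 5 female livers, a guide to background above which the mean of every measured member lay (4.70 to 10.86). The list of 7 hepatocyte markers averaged 12.05 to 12.29 in knockout and 12.01 to 12.35 in control livers. Because whole liver was measured, a change in the number of cells of a type and a change in RNA per cell cannot be told apart.

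Type I interferons bind a receptor that nearly all cells carry and activate the kinases JAK1 and TYK2. A complex that contains STAT2 and IRF9 then binds the interferon-stimulated response element (ISRE) in target promoters, and IRF7, itself a target, drives further interferon production. Interferon gamma, made mainly by T and NK cells, signals through its own receptor to the gamma-activated site (GAS) of target promoters and induces IRF1, large GTPases and the antigen-processing machinery. In the liver, Kupffer cells, infiltrating leukocytes and hepatocytes can all respond to interferon.

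Of the 32 measured members, 6 were higher in knockout livers, 1 was lower and 25 did not pass the test. The higher members were *Irf7*, *Irf8*, *Oasl1*, *Oasl2*, *Xaf1* and *Parp14*, with rises of 1.39-fold (*Irf8*) to 1.82-fold (*Irf7*), and the lower member was *Igtp*, at 0.652 of its control level. Across the array 3.11% of genes were called higher and 1.14% lower, against 18.8% of the members called higher. The fitted difference was above 0 for 27 members and below 0 for 5, against 10661 of 22180 genes above 0. At an unadjusted p under 0.05, 13 members (40.6%) were higher, against 9.65% of all genes. The median difference over the members was 0.21 on the log2 scale, against -0.01 over all genes, and no member reached a 2-fold change. Differences ran from -0.62 (*Igtp*) to 0.95 (*Rsad2*). Compared within sex, all knockout livers exceeded all controls for 8 members, the 6 called higher with *Usp18* and *Ifih1*, or 25.0% of the members, against 5.20% of all genes. No member had all knockout livers below all controls within sex, against 3.72% of all genes. Because the members were chosen with earlier results of these data known, these shares describe the set and are not independent support.

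The type I members held 5 of the 6 genes called higher, of 22 measured, with a median difference of 0.32. The 10 gamma-inducible members held 1 gene called higher (*Irf8*) and the only gene called lower (*Igtp*), with a median difference of 0.16. A difference between the type I and gamma-inducible members was not tested. The count of members called higher depended on single mice. It was 0 without control female 4, 1 without control male 2, knockout male 2 or knockout female 4, 2 without knockout female 5 or knockout female 6, and 8 without control male 1. The count higher over all genes, 690 with all mice, moved in the same omissions. It was 244 and 233 without control female 4 or control male 2, and 440 and 372 without knockout male 2 or knockout female 4. Without knockout female 5, knockout female 6 or control male 1 it was 509, 645 and 825. When all 41345 probe sets were tested, *Irf7* alone passed (adjusted p = 0.047). The median difference stayed above 0 without any single mouse and was lowest, at 0.11, without control female 4.

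**Figure D1:**
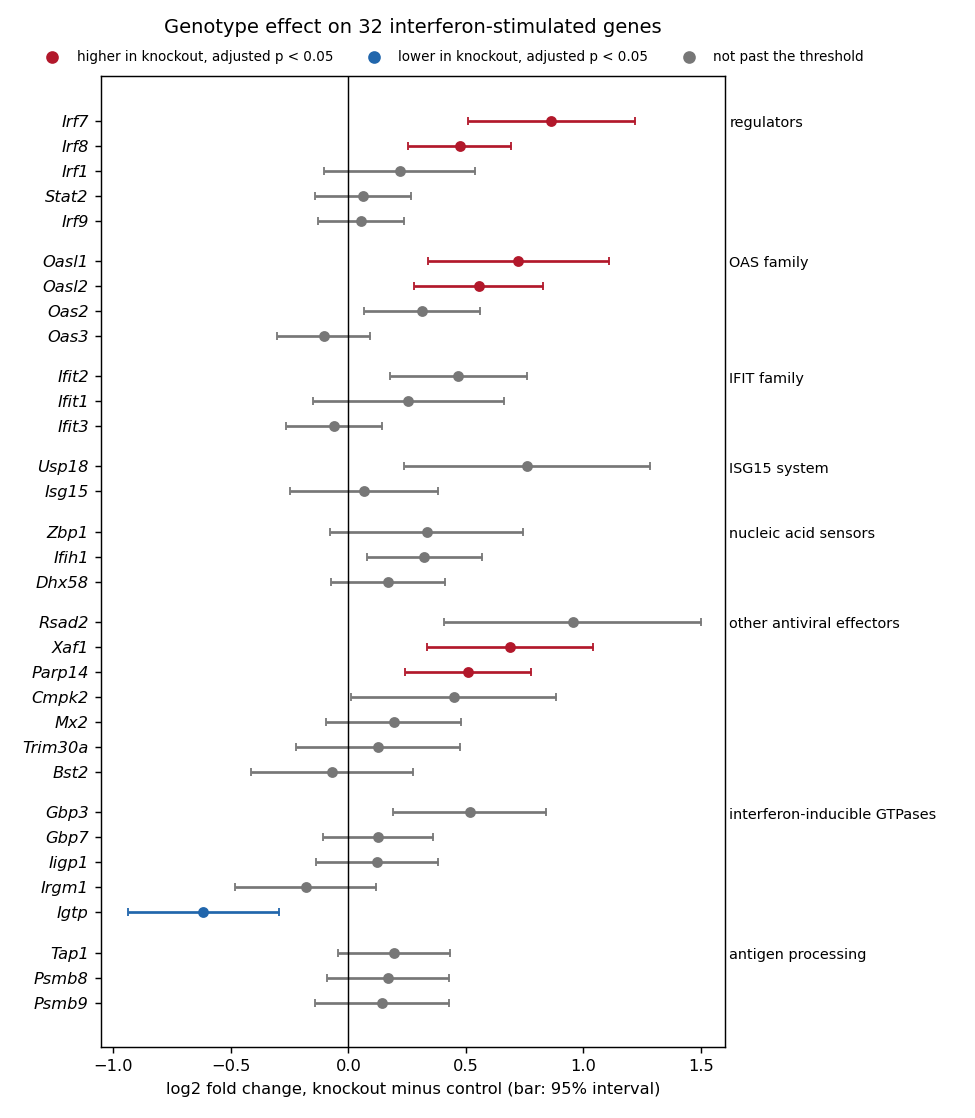
Log2 fold change, knockout minus control, of the 32 measured members (horizontal axis), grouped by role, with bars for the 95% interval of the limma fit. The 6 members called higher are red, *Igtp*, called lower, is blue, and the 25 that did not pass are grey, most of them to the right of 0.

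Promoter sequences of the members were read from RefSeq (assembly GRCm38.p6), 250 bases before to 50 bases after each start, for 28 of the 36 members. Both strands were searched for the exact letters GAAANNGAA, used here for the core of the ISRE, and TTCNNNGAA, used for the GAS. The ISRE core was found in 16 of 28 members (57.1%), against 9.76% of all genes in the table with any promoter of that length, and the GAS in 8 of 28 (28.6%), against 9.55% of all genes. Counted per promoter, these shares over the whole table were 8.56% and 8.30%. Counted per gene over any of its promoters, 11 of 18 type I members held the ISRE core and 3 the GAS. Of the gamma-inducible members, 5 of 10 held each. Of the 5 members called higher that have an entry, none held the ISRE core, and *Irf8* held the GAS. A match describes the letters only and is not evidence of binding.

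The promoters of 4 members are printed 5′ to 3′ in the direction of the gene, with the matches in capitals, to set genes that changed beside a classical target that did not pass the test. *Irf7* (chr7:141266375-141266674, minus strand), the member with the smallest adjusted p, had no match to either motif. *Irf8* (chr8:120736108-120736407, plus strand, 1 of 2 starts listed) had 2 GAS matches, beginning 171 and 153 bases before the start. *Igtp* (chr11:58199306-58199605, plus strand), the member called lower, had a GAS match 45 bases and an ISRE core 34 bases before the start. *Isg15* (chr4:156200769-156201068, minus strand), which did not pass the test, had 3 overlapping ISRE cores, beginning 78, 72 and 66 bases before the start.
Irf7: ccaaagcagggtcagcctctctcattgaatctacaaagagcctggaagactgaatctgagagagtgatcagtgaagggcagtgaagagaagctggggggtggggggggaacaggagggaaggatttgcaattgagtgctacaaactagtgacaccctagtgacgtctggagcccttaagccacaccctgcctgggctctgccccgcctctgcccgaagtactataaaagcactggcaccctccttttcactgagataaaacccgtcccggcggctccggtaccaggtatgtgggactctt
Irf8: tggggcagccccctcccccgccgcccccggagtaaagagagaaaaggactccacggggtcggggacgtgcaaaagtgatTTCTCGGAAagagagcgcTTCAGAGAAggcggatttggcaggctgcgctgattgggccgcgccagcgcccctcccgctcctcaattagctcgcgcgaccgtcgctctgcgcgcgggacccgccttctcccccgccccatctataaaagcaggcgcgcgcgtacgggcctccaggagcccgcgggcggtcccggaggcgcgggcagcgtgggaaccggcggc
Igtp: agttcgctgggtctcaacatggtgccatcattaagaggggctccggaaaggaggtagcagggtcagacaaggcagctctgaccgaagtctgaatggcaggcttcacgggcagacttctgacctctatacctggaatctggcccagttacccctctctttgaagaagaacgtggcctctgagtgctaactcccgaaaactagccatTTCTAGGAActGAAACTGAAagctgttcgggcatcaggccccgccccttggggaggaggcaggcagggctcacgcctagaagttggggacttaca
Isg15: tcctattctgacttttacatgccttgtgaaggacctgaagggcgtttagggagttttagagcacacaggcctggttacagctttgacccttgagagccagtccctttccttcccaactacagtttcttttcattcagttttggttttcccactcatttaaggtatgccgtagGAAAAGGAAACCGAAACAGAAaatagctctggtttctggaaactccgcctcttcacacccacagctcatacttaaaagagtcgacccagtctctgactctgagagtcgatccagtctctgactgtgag
Among members that did not pass the test, the ISRE core stood in promoters over the whole range of differences, from *Irgm1* (-0.18) and *Oas3* (-0.10) to *Gbp3* (0.52) and *Rsad2* (0.95). It also stood in that of *Igtp*, called lower. These exact letters were not found in the windows of *Irf7*, *Oasl1*, *Oasl2* and *Xaf1*, where looser forms of the ISRE were not searched for.

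Among the 5 regulators, *Irf7* and *Irf8* were higher in knockout livers, and *Irf1*, *Stat2* and *Irf9* did not pass the test. *Irf7*, the transcription factor that amplifies type I interferon production, read 9.59 at the lowest, 9.81 at the median and 10.51 at the highest in knockout livers, against 9.24, 9.06, 9.10 and 8.68 in control livers. All 6 knockout livers lay above all 4 controls, and knockout male 2 lay apart from the other 5. The difference was 0.86 ± 0.16 (SE; adjusted p = 0.0142), with 0.92 in females and 0.81 in males. It did not pass without control male 2 (adjusted p = 0.0606) or control female 4 (adjusted p = 0.0633).

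*Irf8*, a factor required for monocyte and dendritic cell development and induced by interferon gamma in macrophages, read 7.40 at the lowest, 7.73 at the median and 7.79 at the highest in knockout livers, against 7.36, 7.00, 7.30 and 7.17 in control livers. The groups did not overlap, though knockout male 3 lay close to control male 1. The difference was 0.47 ± 0.10 (SE; adjusted p = 0.0239) and was lost without any of 5 mice (control male 2, control female 3, control female 4, knockout male 2 or knockout female 4, adjusted p = 0.052 to 0.0981). A second probe set of *Irf8* read 4.62 in both groups and showed a difference of -0.00167. Its level was close to the highest Y-linked reading in females (4.51), so this difference rests on signal near background. With the mean of both probe sets the gene did not pass (adjusted p = 0.154).

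*Irf1*, the GAS-driven factor at the head of the gamma response, read 7.75 at the lowest, 8.37 at the median and 8.83 at the highest in knockout livers, against 8.23, 7.78, 8.55 and 8.01 in control livers, and the groups overlapped (difference 0.22, adjusted p = 0.508). *Stat2* and *Irf9*, parts of the complex that binds the ISRE, differed by 0.06 and 0.05, with 95% intervals of -0.14 to 0.27 and -0.13 to 0.24.

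The OAS family holds the oligoadenylate synthetases and related OAS-like proteins. The synthetases sense double-stranded RNA and activate RNase L. In the family 2 of the 4 measured members were higher. *Oasl1*, an OAS-like protein that in mice restrains translation of *Irf7* mRNA, read 8.29 at the lowest, 8.38 at the median and 8.61 at the highest in knockout livers, against 7.38, 8.20, 8.01 and 7.16 in control livers. The knockout values were tight (SD 0.12) and lay above all controls, which were spread widely (SD 0.50). The difference was 0.72 ± 0.18 (SE; adjusted p = 0.042), and it passed when control male 2 or control female 3 was left out and in none of the other 8 omissions (adjusted p = 0.056 to 0.136). It also did not pass when genotype and sex were fitted as 4 groups (adjusted p = 0.0542) or with arrays centred on their median (adjusted p = 0.0536).

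*Oasl2*, an OAS-like protein with ubiquitin-like domains that in mice keeps synthetase activity, read 7.43 at the lowest, 7.87 at the median and 8.09 at the highest in knockout livers, against 7.32, 7.03, 7.60 and 7.03 in control livers. Control female 3 lay above knockout males 1 and 3, so the groups overlapped, and within each sex they did not. The difference was 0.55 ± 0.13 (SE; adjusted p = 0.0302) and was lost without any of 6 mice (control male 2, control female 4, knockout male 2 or any knockout female, adjusted p = 0.0549 to 0.104) and with no sex term (adjusted p = 0.0875). The other measured synthetase genes did not pass, and *Oas2* differed by 0.31 (adjusted p = 0.162) and *Oas3* by -0.10 (adjusted p = 0.629).

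**Figure D2:**
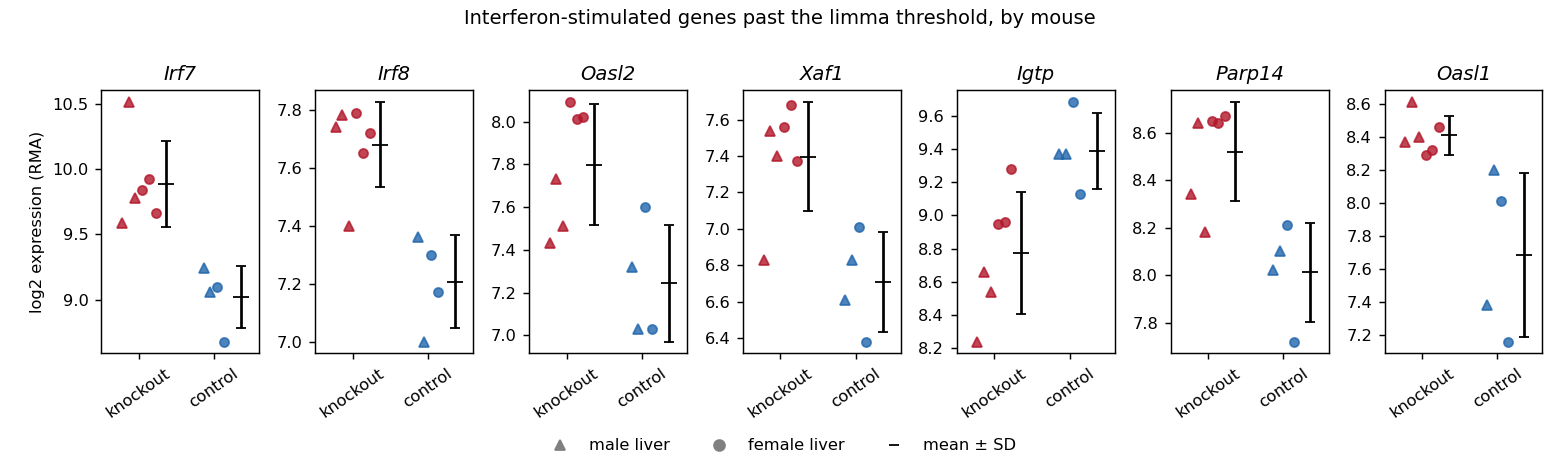
Log2 expression (vertical axis, a separate scale per gene) of the 7 members past the threshold in each mouse, knockout left of control, with triangles for males, circles for females and a black bar for the mean ± SD. *Irf7*, *Irf8* and *Oasl1* show no overlap between the groups, and control female 4 is the lowest control for 6 of the 7 members, all but *Irf8*.

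None of the 3 IFIT genes, whose products bind viral RNA and block its translation, passed the test. *Ifit2* read 4.54 at the lowest, 5.14 at the median and 5.54 at the highest in knockout livers, against 4.70, 4.41, 4.90 and 4.51 in control livers, with 5 of 6 knockouts above all controls (difference 0.47, adjusted p = 0.0776). *Ifit1* ranged widely in both groups, from 6.98 to 8.35 in knockout and from 7.09 to 7.96 in control livers (difference 0.25), and *Ifit3* differed by -0.06.

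Neither gene of the ISG15 system passed. *Isg15*, which encodes a ubiquitin-like protein joined to other proteins during the response, read 4.91 at the lowest, 5.27 at the median and 5.55 at the highest in knockout livers, against 4.70, 5.26, 5.56 and 5.29 in control livers, and the groups overlapped over most of their range (difference 0.07, 95% interval -0.25 to 0.38). *Usp18*, the protease that removes ISG15 and blocks the type I receptor, read 9.59 at the lowest, 10.03 at the median and 10.41 at the highest in knockout livers, against 9.56, 9.12, 9.93 and 8.54 in control livers. Its difference of 0.76 was the third in size among the type I members, but the controls spanned more than the knockouts and it did not pass (adjusted p = 0.107).

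The 3 nucleic acid sensors did not pass either. *Ifih1* (MDA5, a sensor of long double-stranded RNA) differed by 0.32 (adjusted p = 0.144) with all knockouts above all controls within sex, *Zbp1* (a sensor of Z-form nucleic acids that triggers necroptosis) by 0.33 (adjusted p = 0.41) and *Dhx58* (LGP2, a modulator of RNA sensing) by 0.17 (adjusted p = 0.492).

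Of the 7 other measured antiviral effectors, *Xaf1* and *Parp14* were higher. *Xaf1*, an antagonist of the apoptosis inhibitor XIAP, read 6.83 at the lowest, 7.47 at the median and 7.68 at the highest in knockout livers, against 6.61, 6.83, 7.01 and 6.38 in control livers. Knockout male 1 lay within the control range and the other 5 lay above all controls. The difference was 0.69 ± 0.16 (SE; adjusted p = 0.0357), and it passed when control female 3 or knockout male 1 was left out and in none of the other 8 omissions (adjusted p = 0.0508 to 0.12). It did not pass after a further quantile normalisation (adjusted p = 0.0511).

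*Parp14*, a mono-ADP-ribosyltransferase, read 8.18 at the lowest, 8.64 at the median and 8.67 at the highest in knockout livers, against 8.02, 8.10, 8.21 and 7.72 in control livers. Knockout male 3 alone lay within the control range. The difference was 0.51 ± 0.12 (SE; adjusted p = 0.0388), and it passed when control male 1 or knockout male 3 was left out and in none of the other 8 omissions (adjusted p = 0.0531 to 0.115).

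*Rsad2* (viperin, a radical SAM enzyme that makes a chain-terminating nucleotide) had the largest fitted difference of the members, 0.95 ± 0.25 (SE), a 1.94-fold change with a 95% interval of 1.32 to 2.83, and did not pass (adjusted p = 0.0562). It read 7.57 at the lowest, 8.39 at the median and 8.82 at the highest in knockout livers, against 7.84, 7.05, 7.42 and 6.76 in control livers, and control male 1 lay above knockout males 1 and 3. It passed without control male 1 (adjusted p = 0.0108), knockout male 1 (adjusted p = 0.0419) or knockout male 3 (adjusted p = 0.0476), and in 4 alternative fits of all mice (adjusted p = 0.0195 to 0.0461).

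*Cmpk2*, the kinase encoded next to *Rsad2* that supplies its nucleotide substrate, differed by 0.45 (adjusted p = 0.272), and *Bst2* (tetherin, which holds budding virions at the cell surface) by -0.07, with knockout male 2 at 10.20, apart from all other livers. *Mx2* and *Trim30a* differed by 0.19 and 0.13.

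The interferon-inducible GTPases, which attack the vacuoles of intracellular pathogens and are mostly induced by interferon gamma, held the only member that fell. *Igtp* (IRGM3) read 8.24 at the lowest, 8.81 at the median and 9.28 at the highest in knockout livers, against 9.37, 9.37, 9.68 and 9.13 in control livers. In males the groups were well apart, and in females knockout female 6 lay above control female 4. The difference was -0.62 ± 0.15 (SE; adjusted p = 0.0388), with -0.34 in females and -0.89 in males, and it passed when control female 4 or knockout female 6 was left out and in none of the other 8 omissions (adjusted p = 0.0624 to 0.145). It did not pass with no sex term (adjusted p = 0.0915).

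The other 4 measured GTPases did not follow a single direction. *Irgm1*, a regulatory GTPase of the same family, differed by -0.18 (adjusted p = 0.568) and *Iigp1*, an effector GTPase, by 0.12 (adjusted p = 0.676). *Gbp3* and *Gbp7*, guanylate-binding proteins, differed by 0.52 (adjusted p = 0.0802) and 0.13 (adjusted p = 0.625). The 3 antigen-processing genes, the immunoproteasome subunits *Psmb8* and *Psmb9* and the peptide transporter *Tap1*, differed by 0.17, 0.14 and 0.19 and none passed.

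The members varied more between mice of the same genotype, both sexes together, than genes in general. Their median SD was 0.26 in knockout and 0.24 in control livers, against 0.16 and 0.16 over all genes. This SD includes any sex difference, and the genes were not matched for level. A mean below 5 was found in 41.3% of all genes and in 2 of the 32 members. The mean over the 32 members was 7.49, 7.81 and 7.57 in knockout males 1 to 3 and 7.91, 7.93 and 7.95 in knockout females 4 to 6, against 7.51 and 7.47 in control males 1 and 2 and 7.75 and 7.28 in control females 3 and 4. The female controls were thus the highest and the lowest of the 4 controls, and knockout male 1 stood level with the male controls.

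Control female 3 read above control female 4 in 32 of 32 members, with a median gap of 0.46, while over all genes the same comparison was above 0 in 49.6% with a median gap of -0.00237. This gap between 2 control mice of the same sex and genotype was larger than the median difference between the genotypes (0.21). The 2 measures are unlike, since single arrays vary more than the group means behind the genotype difference. The gap was widest for *Usp18* (1.40) and *Zbp1* (1.03) and narrowest for *Irf9* (0.11). Control female 4 was the lowest control for 22 members, or 68.8%, against 21.9% of all genes, and control female 3 the highest for 20, or 62.5%, against 24.9%. Between the male controls the median gap over the members was 0.06. Among the knockouts, male 1 was the lowest for 19 members, or 59.4%, against 14.8% of all genes. With 1 array per mouse, variation between animals and between preparations cannot be told apart.

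**Figure D3:**
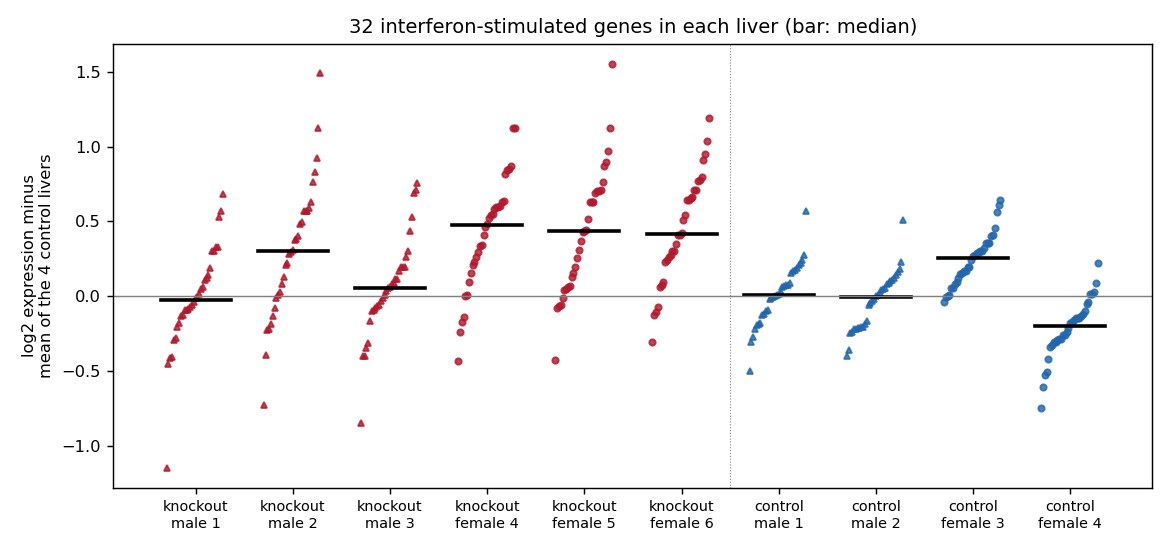
Log2 expression of the 32 members in each mouse minus the mean of the 4 control livers (vertical axis), with points sorted by value within a mouse, triangles for males, circles for females and a black bar for the median. The medians are 0.47, 0.43 and 0.41 in knockout females 4 to 6 and 0.26 and -0.20 in control females 3 and 4, and -0.03 in knockout male 1.

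The median genotype difference of the members was 0.42 in females and 0.11 in males, and the female difference was the larger in 29 of 32 members, against 51.1% of all genes. No member passed the test of the difference between the sexes, against 0.00451% of all genes (1 gene), and 3 members (9.38%) had an unadjusted p under 0.05, a share near the 6.14% of all genes. These were *Cmpk2* (0.89 in females and 0.00497 in males, difference 0.89, unadjusted p = 0.0171 in limma, adjusted p = 0.77), *Tap1* (0.43 and -0.04) and *Rsad2* (1.46 and 0.44). Without control female 4 the female median was 0.17 and the female difference was the larger in 19 of 32 members, whereas without control female 3 these were 0.55 and 30 of 32.

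Apart from genotype, 1 member differed between the sexes, against 0.284% of all genes higher and 0.207% lower in females. *Mx2*, a dynamin-like GTPase of the myxovirus resistance family, averaged 5.20 in knockout females and 4.90 in control females, and 4.37 in knockout males and 4.28 in control males. Its female minus male difference was 0.75 ± 0.13 (SE; adjusted p = 0.0267), and every female liver lay above every male liver. All male readings (4.19 to 4.50) lay below the highest Y-linked reading in females (4.51), so the size of this difference rests on signal near background. Leaving out single mice was not run for this sex difference. The median sex term of the members was 0.20, above 0 in 27 of 32, against a median of 0.000116 over all genes, above 0 in 11105 of 22180.

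**Figure D4:**
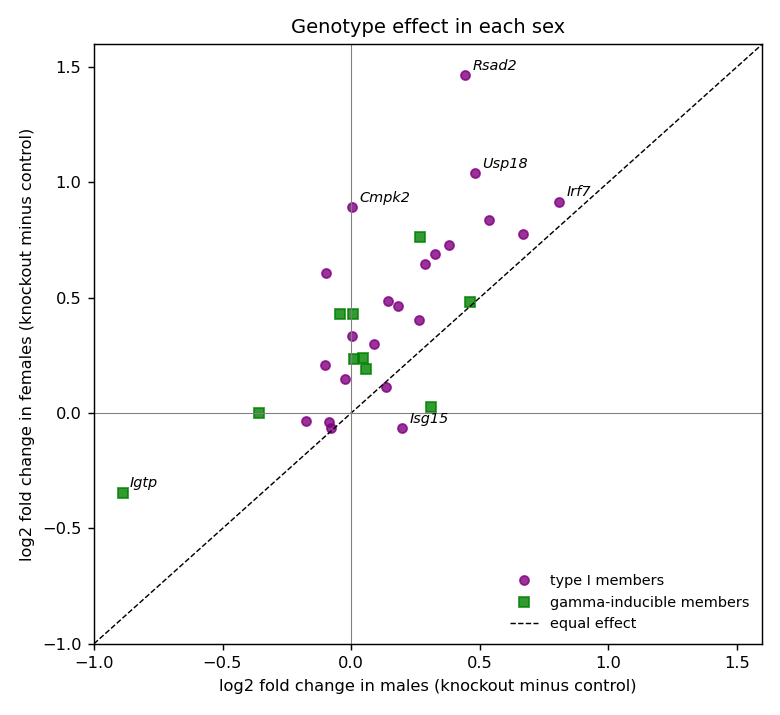
Genotype difference of each member in females (vertical axis) against males (horizontal axis), both log2 knockout minus control, with type I members as purple circles, gamma-inducible members as green squares and a dashed line for equal effects. Of the 32 points, 29 lie above the line, and without control female 4 this count is 19.

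Around the members, 109 of 125 listed genes of the interferon pathway were measured, of which 9 were higher in knockout livers (8.26%, against 3.11% of all genes) and none was lower in limma. At an unadjusted p under 0.05, 33 were higher (30.3%, against 9.65% of all genes) and 4 lower (3.67%, against 7.67%). The median difference was 0.10. These lists, like the members, were chosen with earlier results of these data known. The count higher was 2 without control male 2, control female 4 or knockout female 4, 3 without knockout male 2 and 5 without knockout female 5. Over all genes the counts higher in these omissions were, in the same order, 233, 244, 372, 440 and 509, against 690 with all mice. The receptors held 3 of the 9. *Ifngr1* and *Ifngr2*, the 2 chains of the interferon gamma receptor, averaged 10.31 ± 0.20 and 9.63 ± 0.17 in knockout livers, against 9.70 ± 0.25 and 9.08 ± 0.26 in control livers (adjusted p = 0.024 and 0.0294). *Il10rb*, a chain shared by the interferon lambda and interleukin-10 receptors, differed by 0.54 (adjusted p = 0.0461). The type I receptor chains *Ifnar1* and *Ifnar2* differed by 0.12 and 0.09 and did not pass.

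Of 19 measured interferon genes none was called, and 11 had a mean no higher than the highest Y-linked reading in females, so that their differences rest on signal near background. *Ifng* and *Ifnb1*, named after their values were seen, averaged 4.65 ± 0.16 and 3.39 ± 0.14 in knockout livers, against 4.56 ± 0.18 and 3.40 ± 0.11 in control livers. The 4 measured kinases and STATs and the 7 inhibitors of the pathway held no called gene. *Jak1* and *Stat3* differed by 0.26 and 0.25 (adjusted p = 0.115 and 0.105).

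*Sting1*, the adaptor through which cytosolic DNA triggers interferon production, was the 1 called gene of 12 upstream sensing genes. It read 6.84 at the lowest, 7.28 at the median and 7.40 at the highest in knockout livers, against 6.44, 6.01, 6.80 and 6.62 in control livers, and the groups did not overlap (difference 0.75 ± 0.12, SE; adjusted p = 0.00794). Among 39 further type I targets, *Ly6e*, *Slfn2* and *Ifi204* were higher, by 0.57, 0.73 and 0.46. Among 22 further gamma-inducible genes, *Ciita*, the master regulator of MHC class II, and *Gbp9* were higher, by 0.37 and 0.43. *Cxcl10*, the chemokine that draws CXCR3-bearing T cells, differed by 1.46 and did not pass (adjusted p = 0.0933), with 2.47 in females and 0.45 in males.

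**Figure D5:**
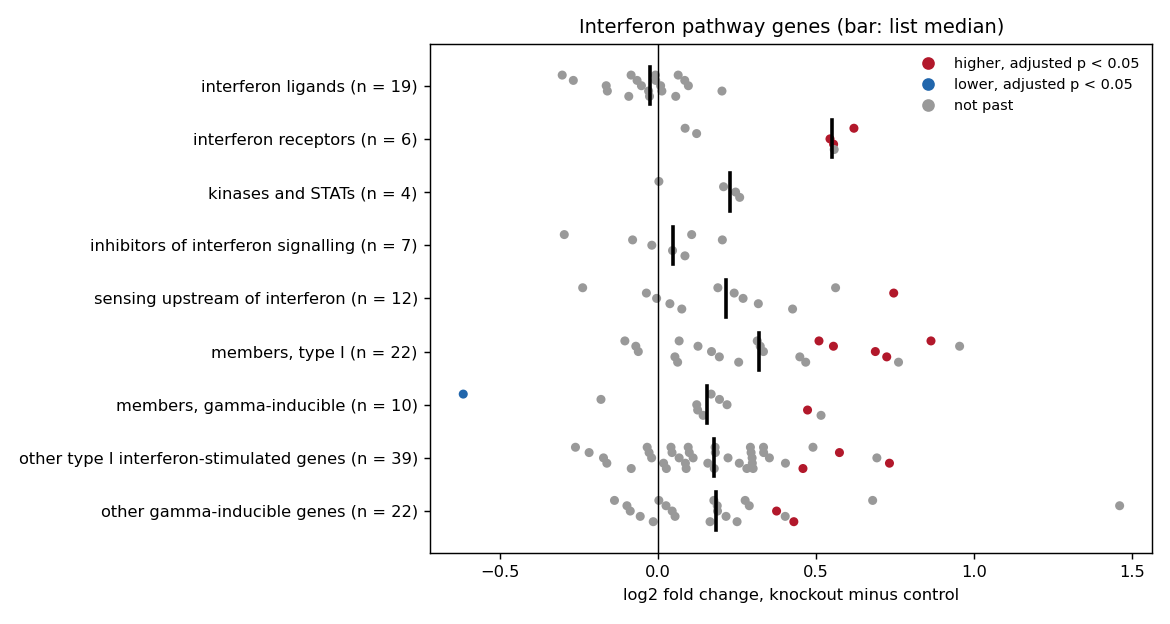
Log2 fold change, knockout minus control, of the genes in each interferon list (horizontal axis), with a black bar for the list median and red and blue points for genes called higher and lower. The receptors have the highest list median, 0.55, and the ligands a median of -0.03.

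Several lists of markers of other liver cells also held genes called higher, where 3.11% of all genes were. A single call in a list this short carries little weight. Of 12 macrophage markers, 4 were higher in knockout livers (*C1qa*, *C1qb*, *Cd5l* and *Cd68*), 11 had a difference above 0, and the list averaged 9.07 to 9.66 in knockout and 8.54 to 9.09 in control livers (median difference 0.55). Of 8 dendritic cell markers *Itgax* was higher, by 0.89, but only 5 had a difference above 0 (median 0.26). The list stood at 5.05 to 5.20 in knockout and 4.82 to 4.96 in control livers. None of 5 monocyte markers passed, though all 5 had a difference above 0 (median 0.43), with the list at 6.04 to 6.57 in knockout and 5.73 to 6.05 in control livers. Bile duct markers held 3 called genes of 4 (*Epcam*, *Krt19* and *Sox9*), and 2 of 5 stellate cell markers (*Pdgfrb* and *Col1a1*), 1 of 6 endothelial markers (*Cdh5*) and 1 of 8 neutrophil markers (*Csf3r*) were also higher. The 8 T and NK cell markers and 3 B cell markers held no called gene. The macrophage list was higher in control female 3 (9.09) than in control female 4 (8.82), as the members were, and in knockout female 6 it read 9.07, the lowest of the knockouts, where the members read 7.95, their highest mean. In the same mouse the monocyte, neutrophil and T and NK cell lists stood at their highest among the knockouts (6.57, 4.98 and 5.16). The dendritic cell and B cell lists (5.14 and 5.19) did not. The part of these cells in the differences of the members was not tested.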

How the data were processed

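Liver RNA of 6 *Vps33b* fl/fl-AlfpCre and 4 *Vps33b* fl/fl mice was hybridised to 1 array each. The authors obtained the deposited log2 values by RMA (oligo package), which corrects the background, equalises the distributions of the arrays by quantiles and summarises the probes of a probe set. No version of RMA or oligo is stated. Quantile normalisation gives all arrays nearly the same distribution, so a shift common to most genes would not be seen, and the number of mice limits the precision.

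Of 41345 probe sets, 23521 carried 1 gene symbol, 1820 several and 16004 none in the platform annotation. Probe sets with 1 symbol were used, taking the highest mean for the 1082 genes with several. The resulting 22180 genes entered a linear model of genotype and sex (limma 3.58.1, R 4.3.3), with Benjamini-Hochberg adjustment over all genes. Effects within each sex and their difference came from a fit with 4 groups. The script was tested on simulated data. Groups came from the labels, which name separate mice. Promoters came from RefSeq. All 36 members could be named, with genes past the threshold and up to 4 with the smallest adjusted p of every other list and *Vps33b*. The members and lists were chosen with earlier results of these data known. Alternatives were no sex term, 4 groups, a replicate block, array weights, other moderation, other use of probe sets, a filter on dim genes, other scaling and leaving out each mouse.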

Additional observations from a re-analysis of the deposited data

Results flagged for a closer look

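In 5 of the 64 sets of knockout or control values examined (32 members in each genotype), the highest or lowest mouse stood apart from the others by more than the 95% limit of Dixon's test, which chance gives in about 1 in 20 sets. *Irf7* read 10.51 in knockout male 2, above the other knockout livers, and *Bst2* read 10.2 in the same mouse. *Xaf1* read 6.83 in knockout male 1 and *Irf8* 7.4 in knockout male 3, each below the other knockout livers. *Cmpk2* read 7.96 in control female 4, below the other control livers, which read 8.74 to 8.80.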

How the results depend on the processing

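The median difference of the members (0.21) stayed above 0 in all 21 alternatives, from 0.11 to 0.30, both reached by leaving out a mouse. The counts of called members moved more. With mice left out in turn, members higher ran from 0 to 8 (type I 0 to 6, gamma-inducible 0 to 2), members lower from 0 to 1 and other pathway genes higher from 2 to 11. Estimated array weights gave 10 members higher (type I 8, gamma-inducible 2) and 15 pathway genes. Testing all 41345 probe sets gave 1 member higher (type I 1, gamma-inducible 0), 0 lower and 2 pathway genes. The mean of probe sets gave 0 gamma-inducible members, and no sex term gave 0 members lower. Whether the replicate numbers shared by the groups pair the mice could not be settled. Correlations of same-numbered deviations from the means of genotype and sex ran from -0.12 to 0.141, with number 3 of different sex. In 1 of 4 numbers the best match was its own. With 2 controls of each sex, the deviations of each 2 mirror one another, so these correlations are not independent. The fit with the replicate block gave 0 members higher (type I 0, gamma-inducible 0), 0 lower and 2 pathway genes. It fits a term for every replicate number, which leaves few degrees of freedom. Knockouts without a control of their number add nothing to its genotype term. A loss of power and an effect of pairing therefore cannot be told apart here. Over all genes the counts higher and lower were 690 and 252, against 208 and 49 with the replicate block, 1031 and 499 with array weights, 275 and 61 over all probe sets, 517 and 165 with no sex term, and 233 to 825 and 47 to 449 with a mouse left out. Differences near 0 changed sign: *Isg15* (-0.0105 with array weights, -0.0720 without control male 1, -0.0167 without knockout male 2; up to 0.150 with a mouse left out), *Bst2* (0.0724 with the replicate block, 0.0130 without knockout male 3; down to -0.207) and, without control female 4, *Irf9* (-0.00291), *Stat2* (-0.0124; up to 0.137) and *Gbp7* (-0.00564; up to 0.225). The cause was not tested. No pathway gene was lower and no member differed between the sexes in any alternative run.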
